A study of Homo sapiens with 6 samples.

Results

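The 5037 regions described here are bright transcript clusters without a gene symbol in MDA-MB-231 cells, measured with and without DAXX knockdown (KD). A transcript cluster is the group of array probes that together report 1 transcribed locus. The regions were selected on 3 properties, namely that they are transcript clusters of the array, that the probe annotation pairs them with no gene symbol, and that their mean signal over all 6 arrays was 7 or more on the log2 scale. Of the 67528 clusters on the array, 42204 had no symbol, and 37167 of these lay under the minimum. The mean signal was used to choose the members and is given as a description. The difference between the groups was not used, since the mean weighs 3 shControl and 3 shDAXX arrays equally.

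The cells were MDA-MB-231, a long-established line from a human triple-negative breast tumour. RNA from 3 shControl and 3 shDAXX cultures was hybridized, 1 array per culture, to ask which transcripts depend on DAXX. The shControl cells carried a scrambled hairpin and the shDAXX cells a hairpin against the DAXX coding sequence, the latter under the human H1 promoter. Both were delivered by lentivirus, and transduced cells were selected with puromycin and then grown without it. The labels give complete DMEM for 24 hours, call the replicates biological and name 1 line and 1 DAXX hairpin, so a difference belongs to that hairpin in that line. DAXX itself fell in the shDAXX arrays, from 7.49, 7.48 and 7.43 to 6.69, 6.67 and 6.61 (log2 difference -0.81, SE 0.081, limma adjusted p = 0.00645). Of 5 further DAXX clusters on alternative contigs of chromosome 6, 4 fell by 0.92 and TC6_ssto_hap7000175.hg.1 differed by 0.15 and was not called. Among the 4, TC6_cox_hap2000210.hg.1 and TC6_dbb_hap3000196.hg.1 held the same values on every array and are 1 measurement.

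DAXX is a chaperone that deposits the histone variant H3.3, much of it at repeats, telomeres and other heterochromatin, together with ATRX, and it also represses transcription through SUMO-dependent partners. Transcriptome arrays of this kind carry probes for loci outside the protein-coding genes, among them long noncoding RNAs, small RNAs, pseudogenes and predicted transcripts. A cluster without a symbol may also be an unlinked exon of a known gene, a repeat, or a locus that the annotation used here has not named. For these members the ID gives a chromosome field and a serial number, and the sources used here give neither coordinates nor sequence.

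The signal of the 5037 members covered the whole upper range of the arrays. Their mean signals ran up to 19.39 with a median of 8.91 and a lower quartile of 7.72 (log2), and 1611 of them lay between 7 and 8. Only 128 lay at 16 or above. Just inside the minimum, TC07000683.hg.1, TC14001731.hg.1 and TC01005760.hg.1 had a mean of 7, with shControl means of 7.17, 6.97 and 7.03 and shDAXX means of 6.83, 7.03 and 6.98. Just outside, TC03002723.hg.1, TC06002347.hg.1 and TC11002318.hg.1 had shControl means of 7.13, 7.09 and 7.29 and shDAXX means of 6.86, 6.90 and 6.70. The minimum therefore cut through a continuous range of signals.

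The brightest members included rows that carried the same signal. TC02000740.hg.1, TC04000491.hg.1, TC04001102.hg.1, TC07001932.hg.1 and TC09000152.hg.1 had the same 6 values, 19.52, 19.41 and 19.47 in shControl and 19.24, 19.37 and 19.35 in shDAXX. TC01002863.hg.1 differed from them by at most 0.01 on any array. The other 4 of the 10 brightest members were mitochondrial clusters, TC0M000020.hg.1, TC0M000005.hg.1, TC0M000004.hg.1 and TC0M000022.hg.1, with shControl means of 19.38 to 19.43. For these 10 rows, which held 6 distinct profiles, the shDAXX arrays were 0.13 to 0.17 lower. The groups did not overlap in any of them, beside 35.4% of all members and 20.4% of all clusters. None of the rows passed the test (limma adjusted p = 0.476 to 0.567). They lie at the top of a table whose highest value was 19.52, where array signals can saturate.

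All 22 mitochondrial clusters in the table were members, and none had a symbol. Their mean signals ran from 10.45 to 19.36, and 13 of the 22 reached 18. In shDAXX, 21 of 22 had a difference below 0, with a median of -0.14, and 0 passed the limma test (smallest adjusted p 0.438), nor did any have an unadjusted p under 0.05. TC0M000019.hg.1, the dimmest, was the exception at 0.38.

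Identical rows were common among the members. A set of 384 members (7.62%) shared all 6 values with at least 1 other row, in 95 groups, so that the 5037 rows held 4748 distinct profiles. In 46 of the 95 groups the rows carried more than 1 chromosome field. The largest group, of 35 rows over 13 chromosome or contig fields, read 7.47, 6.69 and 8.77 in shControl and 8.80, 8.20 and 8.92 in shDAXX. The shControl and shDAXX arrays overlapped there, and the difference of 0.997 (SE 0.505) did not pass the test (limma adjusted p = 0.433). limma called 0 of the 384 rows, and so 0 of the 95 groups. An unadjusted p under 0.05 was found for 85 of these rows, a count that includes repeats of the same values. Over all members it was found for 1605 of 5037 rows, and over all clusters for 10006 of 67528. Rows with equal values are 1 measurement, and the array cannot say from which locus it came.

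limma called 302 members (6.00%), against a background of 2.13% of all 67528 clusters. Here called means a Benjamini-Hochberg adjusted p under 0.05 over every cluster. Of the 302, 91 were higher in shDAXX (1.81%, background 0.795%) and 211 were lower (4.19%, background 1.34%). Clusters with 1 symbol and the same brightness minimum were called in 7.75% of 8545 cases, with 263 higher and 399 lower, and clusters without a symbol under the minimum in 0.638% of 37167. Among the called members 26 rose and 87 fell by more than 2-fold, and 12 rose and 9 fell by more than 4-fold. Over all 67528 clusters these counts were 157 and 288, and 53 and 37. For members with both group means at 7 or more, they were 19 and 76, and 8 and 8. An unadjusted p under 0.05 was found for 1605 of the 5037 members. It was found for 10006 of all 67528 clusters and 2784 of the 8545 bright clusters with 1 symbol.

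**Figure D1:**
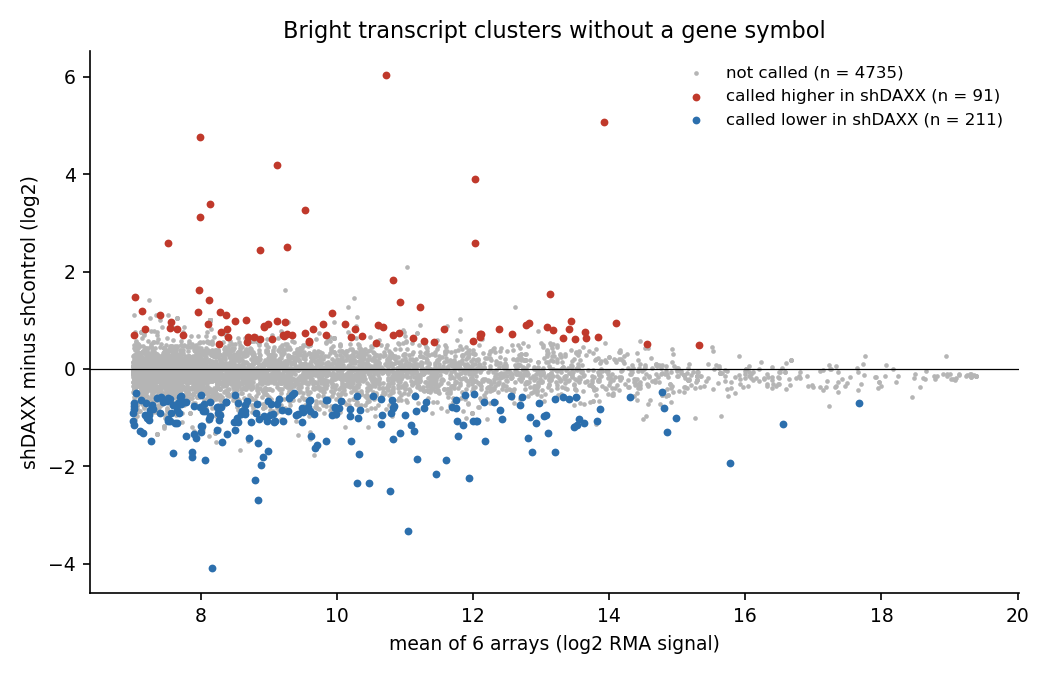
Difference of shDAXX from shControl (log2, y axis) against the mean of 6 arrays (log2 RMA signal, x axis) for the 5037 members, 1 point each. The 91 called higher are red, the 211 called lower blue and the rest grey, and the called points thin out above a mean of 16, where 2 of 128 were called.

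These counts changed with the arrays included and with the scaling. Without any 1 of the 6 arrays, 23 to 34 members were higher and 55 to 101 lower. After a further quantile normalization 140 were higher and 201 lower, so that the share of lower calls was 58.9% in place of 69.9%, and with equal array medians it was 72.7%. Calls that held without any 1 array numbered 20 of the 91 higher and 46 of the 211 lower.

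The members as a whole lay slightly below 0. Their median difference was -0.087, with quartiles of -0.307 and 0.127, and 61.3% were below 0. Over all clusters the median was 0.010 and 47.4% were below 0, and over the bright clusters with 1 symbol, 7730 of 8545 of them protein-coding, the values were -0.020 and 53.2%. Several classes of bright named noncoding clusters lay as low or lower. Their medians were -0.090 for 91 long noncoding RNAs (72.5% below 0), -0.097 for 150 transcribed pseudogenes (66.7%) and -0.393 for 90 small nucleolar RNAs (75.6%). For 90 microRNAs the median was -0.075 (63.3%), slightly less low than that of the members. The medians of the single shDAXX arrays were -0.087, -0.043 and -0.107. After quantile normalization the median was -0.018 with 52.5% below 0, so the size of this shift changed with the scaling. At means of 16 or more, 105 of 128 members were below 0 (median -0.155), and the 40 clusters with 1 symbol at that level had a median of -0.145.

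The groups did not overlap for 1783 members (35.4%), where the background was 20.4% and the bright clusters with 1 symbol had 48.6%. The median SD between replicates was 0.170 for the members and 0.088 for the bright clusters with 1 symbol, and it exceeded 0.5 in 276 members (5.48%) and in 0.328% of those clusters. Among the named clusters it was 0.085 for protein-coding genes, 0.138 for long noncoding RNAs, 0.247 for 90 microRNAs and 0.377 for small nucleolar RNAs, so the spread of the members lay within that of the named noncoding classes. TC04000276.hg.1 was the most variable, at 3.54, 6.83 and 9.25 in shControl and 6.75, 7.40 and 9.72 in shDAXX. Its groups overlapped, and the difference of 1.42 had an SE of 1.46.

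The serial numbers split the members into classes that differed in spread. On each of 24 chromosomes the numbers hold 1 long range in which no cluster has a symbol, found after the data were seen. This range held 2637 members (52.4%), and the other 2400 lay outside it, most with numbers among those of named genes. These 2400 also include 22 mitochondrial members, 38 on alternative contigs of chromosome 6 and 18 on other contigs. Inside the range, 74 members were called higher and 122 lower (7.43%), the median SD was 0.151 and 1.10% had an SD over 0.5. Outside it, 17 were called higher and 89 lower (4.42%), the median SD was 0.207 and 10.3% had an SD over 0.5. The fewer calls outside thus came with a wider spread, and whether the spread accounts for them was not tested.

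**Figure D2:**
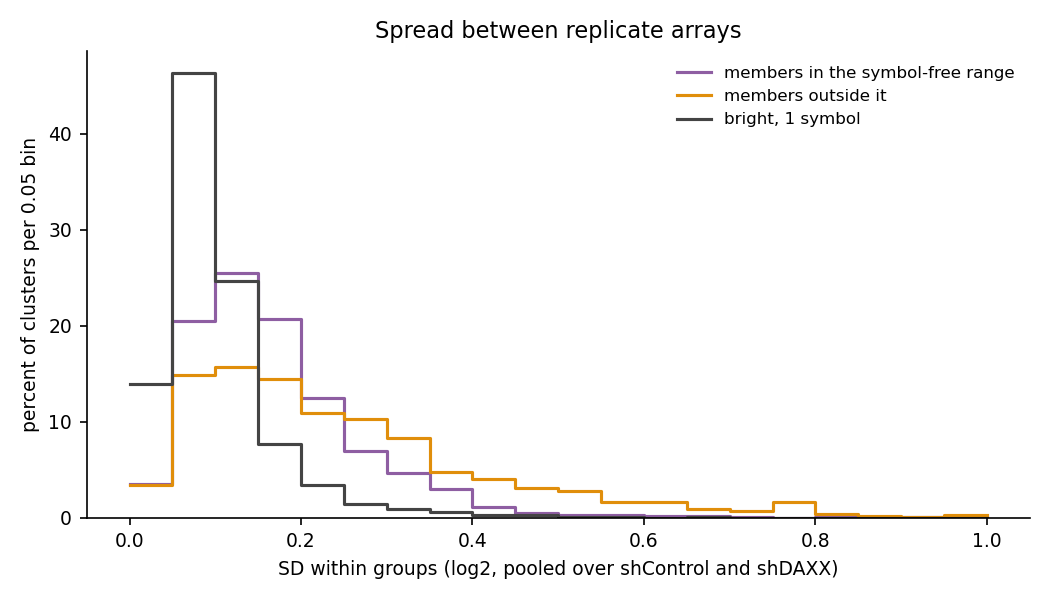
Percent of clusters (y axis) by SD within groups (log2, x axis, bins of 0.05, values above 1 placed in the last bin) for members inside the range of numbers without symbols, members outside it and bright clusters with 1 symbol. The named clusters peak lowest (median 0.088), then the members inside (0.151) and outside (0.207) the range.

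The largest rise was that of TC15002016.hg.1 on chromosome 15. It read 7.58, 7.97 and 7.55 in shControl and 13.65, 13.82 and 13.73 in shDAXX. All 3 shDAXX arrays were far above the highest shControl array, and the rise was 65.5-fold (6.03, SE 0.14, limma adjusted p = 2.6e-05). Its nearest named neighbour by number, TARS3, a threonyl-tRNA synthetase gene, differed by -0.14 and was not called. TC04002067.hg.1 on chromosome 4 read 11.47, 11.74 and 10.96 in shControl and 16.42, 16.44 and 16.51 in shDAXX. It was among the bright members already in shControl, and the shDAXX arrays lay within 0.09 of each other (33.5-fold, SE 0.19, limma adjusted p = 1.6e-04).

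Among the next largest rises were a pair of chromosome 19 members with numbers 22 apart. TC19001955.hg.1 went from 5.85, 5.51 and 5.45 to 10.15, 10.83 and 10.13, a rise of 4.77 (SE 0.22, limma adjusted p = 2.5e-04). Its shControl mean of 5.60 was under 7, so it is a member through the shDAXX arrays. TC19001977.hg.1 went from 10.09, 10.23 and 9.92 to 13.67, 14.13 and 14.14 (14.9-fold). On chromosome 11, TC11002587.hg.1, whose rise lay between those of the pair, went from 6.98, 7.09 and 6.99 to 11.04, 11.56 and 11.05 (18.3-fold). In each of these the groups were separated by more than 3 log2 units, and their replicates within a group by less than 0.8.

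TC05000629.hg.1 on chromosome 5 rose from 6.40, 6.40 and 6.55 to 9.43, 10.25 and 9.83 (10.5-fold, limma adjusted p = 7.7e-04). It carries the next number after IL3, the gene of the hematopoietic cytokine interleukin-3, whose own cluster stayed at 4.91 in both groups, and lies 2 numbers before P4HA2-AS1 (-0.02). The 3 shDAXX arrays did not overlap shControl, and with a shControl mean of 6.45 it is a member through the shDAXX arrays. TC11000956.hg.1 rose from 9.79, 10.04 and 9.91 to 11.71, 11.79 and 11.70 (3.53-fold). It stands between YAP1, a transcriptional coactivator of the Hippo pathway (-0.40), and BIRC2, an inhibitor of apoptosis (0.21), neither of which was called.

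The remaining rises among the 15 largest were smaller. TC06003084.hg.1 rose by 2.59, TC17002194.hg.1 by 2.59, TC03003211.hg.1 by 2.50, TC12002425.hg.1 by 1.63 and TC09002418.hg.1 by 1.55, with limma adjusted p of 0.00252 or less. TC14001821.hg.1, at 5.84, 7.23 and 6.22 in shControl and 9.15, 10.02 and 9.46 in shDAXX, rose by 3.11 (limma adjusted p = 0.0138). Like TC17002194.hg.1, with shControl means of 6.43 and 6.22, it is a member through the shDAXX arrays. It was no longer called once shControl replicate 3 (0.0629) was left out, nor without the second or the third shDAXX array (0.0561 and 0.0664).

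**Figure D3:**
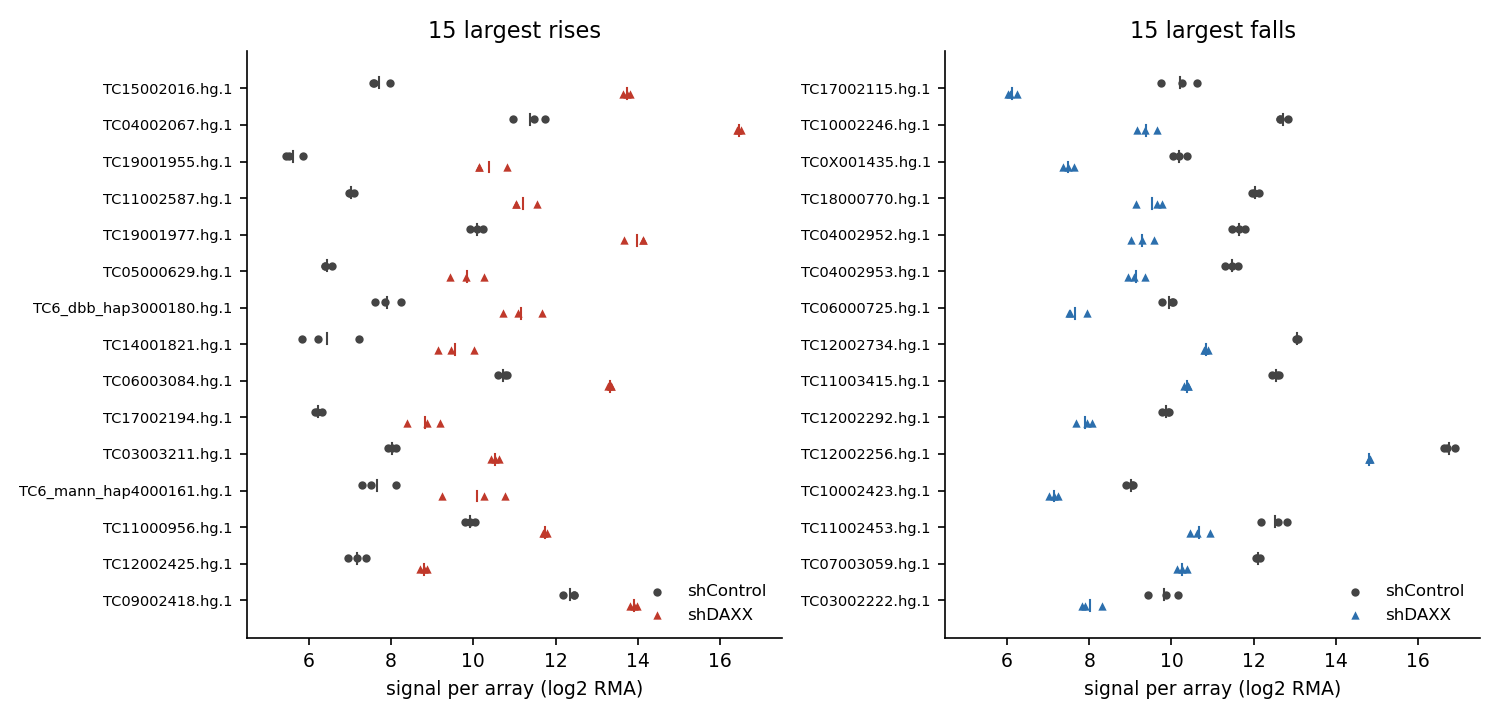
Log2 RMA signal of each array (x axis) for the 15 largest rises (left) and 15 largest falls (right) among called members whose groups do not overlap, 1 cluster per line. Circles are shControl arrays, triangles shDAXX arrays and short lines group means, from 7.70 and 13.73 for TC15002016.hg.1 at the upper left to 9.82 and 8.01 for TC03002222.hg.1 at the lower right.

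Alternative assemblies of the major histocompatibility complex on chromosome 6 contributed 38 members, with 31 distinct profiles over 7 contigs. This complex holds the antigen-presenting HLA genes, whose close paralogs and alleles can share probes. Of the 38, 2 (5.26%) were called, both higher, beside 6.00% of all members and 2.13% of all clusters. In 21 (55.3%) the groups did not overlap, beside 35.4% of all members and 20.4% of all clusters. TC6_dbb_hap3000180.hg.1 rose from 7.86, 7.60 and 8.23 to 10.73, 11.67 and 11.08 (9.60-fold, SE 0.27, limma adjusted p = 0.00273). By number it stands between BTNL2 (0.07) and HLA-DQB1 (0.57), a class II chain, and neither was called. The order of numbers on the contigs was not checked.

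TC6_mann_hap4000161.hg.1 rose from 7.30, 8.13 and 7.51 to 9.23, 10.78 and 10.25 (2.44, SE 0.41, limma adjusted p = 0.0377). HLA-DRB4, a class II beta chain gene 2 numbers away, rose from 6.48 ± 0.25 to 8.36 ± 0.45 (SD, n = 3, limma adjusted p = 0.0163), a call that 4 of the 6 fits without 1 array did not make (up to 0.0788). The member's call was lost without shControl replicates 1, 2 or 3 (0.141, 0.0894 and 0.118) and without shDAXX replicates 2 or 3 (0.0916 and 0.135). TC6_dbb_hap3000208.hg.1, chosen after its values were seen, read 10.17, 10.15 and 9.63 in shControl and 11.34, 12.93 and 11.99 in shDAXX. Its groups did not overlap, but with an adjusted p = 0.0524 in limma it was not called. The other 35 differed by -0.74 to 0.45.

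The largest fall was that of TC17002115.hg.1 on chromosome 17, from 10.62, 10.26 and 9.75 to 6.03, 6.07 and 6.25. The groups were more than 3 log2 units apart, and the fall was 17.1-fold (-4.09, SE 0.22, limma adjusted p = 4.5e-04). Its shDAXX mean of 6.12 was under 7, so it is a member through the shControl arrays. TC10002246.hg.1 on chromosome 10 fell from 12.64, 12.65 and 12.83 to 9.35, 9.15 and 9.64 (10.0-fold). TC0X001435.hg.1 fell from 10.37, 10.18 and 10.03 to 7.35, 7.49 and 7.64 (6.50-fold). Its neighbours by number, the transcription factor gene SOX3 and the microRNA gene MIR320D2, were at 3.80 and 5.46 in shControl and differed by 0.04 and 0.03. TC18000770.hg.1 fell from 12, 11.95 and 12.14 to 9.14, 9.65 and 9.78 (5.68-fold).

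On chromosome 4, TC04002952.hg.1 and TC04002953.hg.1 carry consecutive numbers and moved alike. The first read 11.65, 11.79 and 11.47 in shControl and 9.02, 9.28 and 9.58 in shDAXX, and the second 11.48, 11.62 and 11.29 and then 8.95, 9.08 and 9.35. Both fell by 2.34 (limma adjusted p = 0.0014 and 7.8e-04). ARAP2, a GTPase-activating protein gene 2 numbers further on, fell by 0.54. MTNR1A, a melatonin receptor gene with a lower number, differed by -0.12. These numbers lie after the symbol-free range, where order along the chromosome was not checked, so neither gene is known to be adjacent. The call of ARAP2 was lost without any 1 array (0.0869 to 0.111). TC06000725.hg.1 on chromosome 6 fell from 10.01, 10.04 and 9.78 to 7.52, 7.94 and 7.51 (4.88-fold), and the named clusters on both sides, OGFRL1 (-0.64) and the synaptic gene RIMS1 (-0.49), were called lower as well, in calls that no fit without 1 array made (0.0646 to 0.138 and 0.109 to 0.147).

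Of the other falls among the 15 largest, TC11003415.hg.1 (-2.16), TC12002292.hg.1 (-1.98), TC10002423.hg.1 (-1.87) and TC07003059.hg.1 (-1.84) had limma adjusted p of 9.4e-04 or less. TC11002453.hg.1 (-1.86) stands between ADAMTS8 (-0.05) and LINC02551 (0.04). It lost its call without shControl replicate 2 (0.0504). TC03002222.hg.1 (-1.81) lost its call without shControl replicate 1 (0.0626) or shDAXX replicates 1 or 2 (0.0598 and 0.0584).

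A group mean under 7 was found for 284 members, of which 9 were called higher (3.17%) and 24 lower (8.45%). Over all clusters these shares were 0.795% and 1.34%. Such members reached the minimum only through their other group, so this choice favours members that differ between the groups. With both group means at 7 or more, 82 of 4753 members were called higher (1.73%) and 187 lower (3.93%). TC21000739.hg.1 rose from 6.30 ± 0.090 to 7.78 ± 0.12, TC13001558.hg.1 fell from 8.78 ± 0.39 to 6.98 ± 0.12, TC12000235.hg.1 from 8.45 ± 0.051 to 6.72 ± 0.45, TC16001920.hg.1 from 8.01 ± 0.28 to 6.53 ± 0.075 and TC05002258.hg.1 from 7.81 ± 0.39 to 6.49 ± 0.18 (SD, n = 3). Among these, TC13001558.hg.1 lost its call without shControl replicate 2 (0.0517) or shDAXX replicate 3 (0.0530), TC12000235.hg.1 without shDAXX replicate 1 or any single shControl array (0.0612 to 0.0759), and TC05002258.hg.1 without any 1 array but shControl replicate 1 (0.0929 to 0.114).

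The IDs of the members carried the field of every chromosome. Chromosome 1 held 547 (10.9%), chromosome 2 326, chromosome 7 310 and chromosomes 6 and 17 278 each. On 21 of 23 chromosomes (1 to 22 and X) the median difference of the members was below 0, and on 18 more members were called lower than higher. Across the 23, the medians of members and of bright clusters with 1 symbol moved together (Pearson r 0.77, Spearman 0.72, and 0.71 by Pearson without chromosomes 8, 12 and 20), a description over chromosomes measured on the same arrays. Of the 19 members with the field of chromosome Y, limma called 0 and 6 had an unadjusted p under 0.05. Of all 5037 members 1605 had one, and of all 67528 clusters 10006. Among the 19, 3 shared their values with rows of another chromosome. Whether the signal of any of the 19 came from chromosome Y was not tested.

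Chromosomes 12, 20 and 8 stood apart in the share of calls. On chromosome 12, 30 of 233 members (12.9%) were lower and 8 higher, and 95 of 471 bright clusters with 1 symbol (20.2%) were lower. On chromosome 20, 13 of 120 members (10.8%) were lower and 1 higher, beside 9.46% of 222 named clusters lower. On chromosome 8, 10 of 168 members (5.95%) were higher and 2 lower, beside 9.75% of 277 named clusters higher. On the other 20 chromosomes, 0.758% to 7.02% of members were lower and 0.36% to 3.11% higher. Without any 1 array, the lower calls numbered 7 to 14 on chromosome 12 and 3 to 5 on chromosome 20, and the higher calls 1 to 4 on chromosome 8. The difference between chromosomes was not tested.

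**Figure D4:**
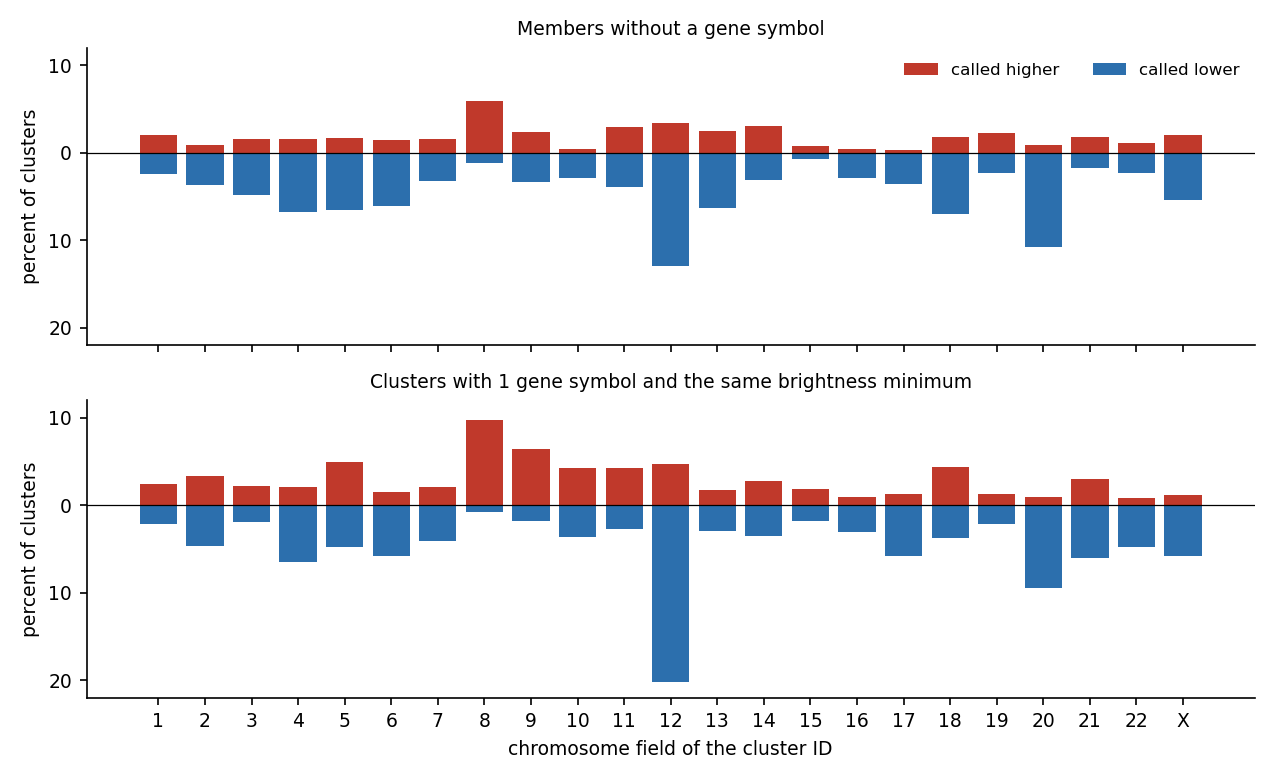
Percent of clusters called higher (red, upwards) and lower (blue, downwards) in shDAXX (y axis) by chromosome (x axis), for members above and for clusters with 1 symbol and a mean of 7 or more below. Chromosomes 12 and 20 have the tallest lower bars (12.9% and 10.8% of members) and chromosome 8 the tallest higher bar (5.95%).

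The serial numbers carry order along the chromosome, which gave the members a rough place. For clusters with 1 symbol before the symbol-free range, the numbers followed the RefSeq gene starts of GRCh38.p14 on 23 chromosomes, first along the plus strand and then along the minus strand (Spearman 0.948 to 1.0 and 0.959 to 1.0). Chromosome 8 was not checked. Whether the order also holds inside the symbol-free range could not be checked, since no cluster there has a symbol, and the numbers after it and those of the contigs were not checked.

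On chromosome 12 the lower calls were gathered in parts of the numbering. Among named bright clusters, 45 of 61 with numbers 1 to 300, from WASH8P to DNM1L on the plus strand, and 31 of 48 with numbers 1101 to 1400, from FOXM1 to KIF21A on the minus strand, were called lower. Between and after these numbers, 6 of 162 and 3 of 155 were. The members with numbers in those stretches were called lower in 2 of 13 and 1 of 13 cases, with medians of -0.26 and -0.16. The limits of the stretches were chosen after the values were seen.

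Inside the symbol-free range of chromosome 12 the 133 members showed a pattern with a pair of low stretches. Of 12 equal bins of numbers, 4 were picked for their low medians after the values were seen. They cover 2166 to 2327 and 2688 to 2850. Of their 49 members, 24 were called lower, 0 higher and 46 were below 0 (bin medians -0.92 to -0.47). The other 8 bins held 84 members, of which 2 were lower, 7 higher and 37 below 0 (bin medians -0.09 to 0.41). This contrast follows in part from how the bins were picked. Over all clusters 1.34% were called lower and 0.795% higher. Without the members of chromosome 12, 83 members of the array were higher and 181 lower.

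**Figure D5:**
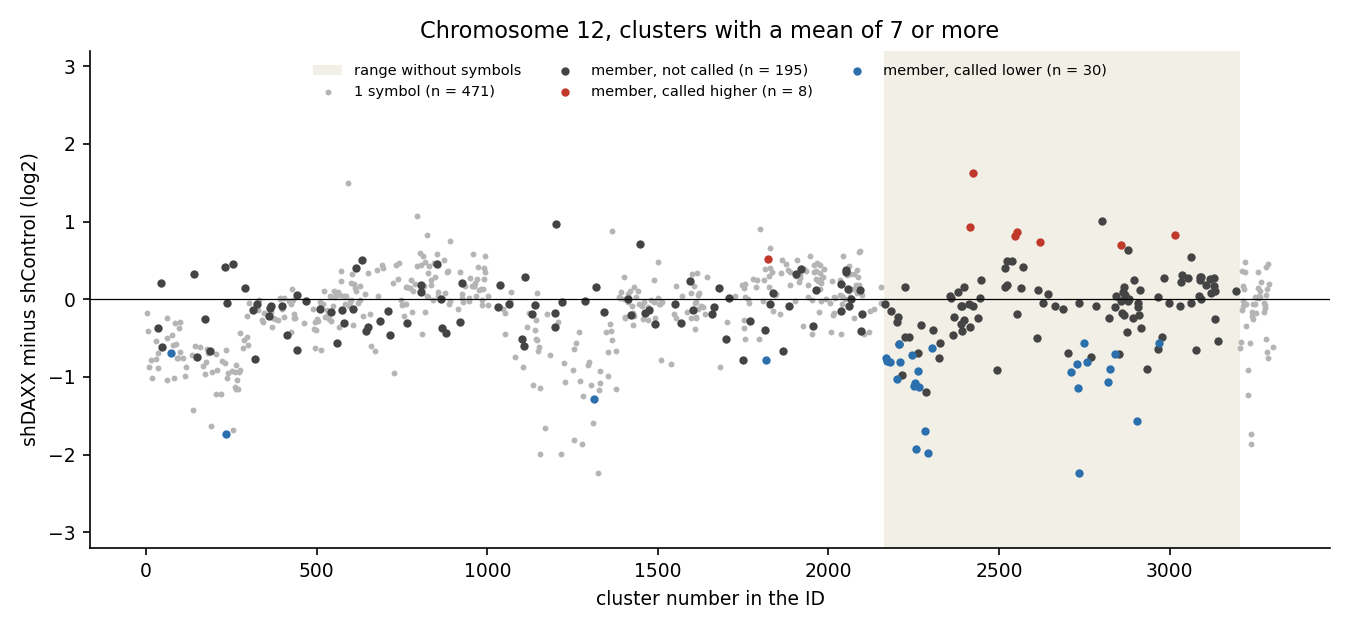
Difference of shDAXX from shControl (log2, y axis) against the cluster number in the ID (x axis) for chromosome 12 clusters with a mean of 7 or more. Grey points are 471 clusters with 1 symbol, dark points members not called, and red and blue points the 8 and 30 members called higher and lower. The shaded band is the range without symbols, where 24 of the lower calls lie in 2 stretches chosen after the values were seen.

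Runs of at least 3 called members in the same direction, each within 10 numbers of the next, occurred 6 times, 4 on chromosome 12, 1 on chromosome 14 and 1 on chromosome 20, each in the symbol-free range. The longest held 6 of the 7 members from 2244 to 2266. TC12002256.hg.1 in it read 16.70, 16.90 and 16.62 in shControl and 14.81, 14.84 and 14.80 in shDAXX, a 3.79-fold fall in a very bright cluster (SE 0.10, limma adjusted p = 4.5e-04). Every shDAXX array lay below every shControl array. TC12002734.hg.1, in a run of 3 of 3 members, fell from 13.04, 13.09 and 13.06 to 10.80, 10.88 and 10.81 (-2.23, limma adjusted p = 1.6e-04). The leaders of the other 2 chromosome 12 runs were TC12002179.hg.1 (-0.81) and TC12002202.hg.1 (-1.02). Their groups did not overlap, but their calls did not hold in every fit without 1 array. The first was not called without shControl replicates 1 or 2 (0.0515 and 0.0546) or shDAXX replicate 2 (0.0518), and the second without any 1 array (0.0558 to 0.0897).

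The run on chromosome 14 was the only one upwards. It held 3 of 8 members, led by TC14001732.hg.1, which rose from 10.35, 10.33 and 10.07 to 11.55, 11.62 and 11.69 (2.58-fold), while the median of the 8 was -0.002. On chromosome 20 the run held 3 of 5 members, led by TC20001558.hg.1, which fell from 13.49, 13.61 and 13.34 to 12.32, 12.52 and 12.27 (2.16-fold). In both leaders all shDAXX arrays lay on 1 side of all shControl arrays.

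The members were also set beside their named neighbours. For 2381 members a cluster with 1 symbol lay within 10 numbers, and 111 of these members were called. The nearest named cluster was called in the same direction for 6 of them (5.41%), in the opposite direction for 1 and not at all for 104. Among the 2270 members that were not called, 92 (4.05%) had a neighbour called in either direction, a wider count than the same-direction share. With the nearest bright named cluster instead, 12 of 104 called members (11.5%) had a neighbour called in the same direction and 1 in the opposite one. Of 2090 members that were not called, 7.70% had a bright neighbour called in either direction. The differences of members and neighbours were hardly related across the 2381 pairs (Pearson r 0.064, Spearman 0.051), which share arrays. A gene on the other strand carries a distant number and was not examined here.

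Of the 6 members with a neighbour called in the same direction, TC6_mann_hap4000161.hg.1, TC04002953.hg.1 and TC06000725.hg.1 are described above. For TC6_mann_hap4000161.hg.1 and TC04002953.hg.1 the order of the numbers along the chromosome was not checked. The other 3 were chosen after their values were seen. TC02001601.hg.1 fell from 9.05, 8.74 and 8.37 to 6.94, 7.04 and 7.07 beside CYRIA, an inhibitor of Rac1 signalling to actin (-1.16). TC17000361.hg.1 fell by 0.69 beside NF1, the neurofibromin Ras-GAP gene (-0.76), and TC06001808.hg.1 by 0.73 between GSTA4, a glutathione transferase gene (-0.81), and CILK1, a ciliary kinase gene (-0.51). Without any 1 array TC02001601.hg.1 and CYRIA kept their calls (limma adjusted p up to 0.0446 and 0.0192), while TC17000361.hg.1 and NF1 lost theirs in all 6 fits, TC06001808.hg.1 and GSTA4 in 5 of 6 and CILK1 in all 6. Whether a member and the gene next to it in number belong to 1 transcript cannot be told from these values.

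The mesenchymal markers VIM, CD44 and AXL were bright and the hormone receptor genes low, while epithelial EPCAM (7.98 in shControl) lay above mesenchymal SNAI2 (7.63). VIM, CD44, AXL and SNAI2 lay between 7.63 and 16.01 in shControl at their brightest clusters (a second CD44 cluster was at 6.59). AXL was called lower, from a mean of 15.84 in shControl to 15.36 in shDAXX. The hormone receptor genes ESR1 and PGR were at 4.53 and 4.04, and ERBB2, also looked for, had no value here. The epithelial markers CDH1 and EPCAM were at 4.75 and 7.98. The 8 markers of leukocytes, endothelium and fibroblasts lay at 4.37 to 6.35 over both groups, with 0 of the 8 called. RNA was taken from whole cultures, so fewer cells of a type and less RNA per cell cannot be told apart. Over the members, arrays of 1 group correlated at 0.986 to 0.992 and arrays of different groups at 0.968 to 0.981.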

How the data were processed

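The authors hybridized biotinylated cRNA from 200 ng total RNA to Affymetrix human transcriptome arrays (version 2.0) and deposited log2 RMA signals. RMA removes background, brings the arrays to a common distribution and reduces the probes of each cluster to 1 value. Affymetrix Expression Console is named in the submitters' processing notes, and its version and the genome build are not given in the sources used here. The log2 scale was inferred from the deposited values. The study describes batch correction for arrays run at different times, and whether these 6 were corrected is not given. The number of arrays limits the precision. Groups and replicate numbers came from the sample titles.

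All 67528 clusters were fitted with limma 3.58.1 (R 4.3.3, lmFit then eBayes, two-sided) for the difference of shDAXX from shControl without covariates, with Benjamini-Hochberg adjustment over them and a threshold of 0.05. The fit was tested on simulated data. Levels are means ± SD and differences carry moderated standard errors. The members and lists were chosen with earlier results of these data known. Named were DAXX, the 15 largest rises and falls among called members whose groups do not overlap, the 10 brightest, the 3 on each side of the minimum, the largest change of each run, the nearest named neighbours within 10 numbers, and up to 5 called members per direction with a group mean under 7. The alternatives were scaling, array weights, the replicate block, other tests, other brightness minimums and leaving out arrays. Same-numbered arrays of the 2 groups deviated with correlations of -0.088, 0.15 and 0.06, and arrays with different numbers with -0.166 to 0.1. With 3 arrays per group this cannot decide whether the numbers pair the cultures, and the sample titles do not say.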

Additional observations from a re-analysis of the deposited data

How the results depend on the processing

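The main counts were 91 members higher and 211 lower. They were 400 and 699 in a fit over bright clusters only, which tests fewer clusters, 196 and 389 with trend and robust, and 18 and 43 with a minimum fold change of 1.3. The methods' t-test gave 270 and 584 at its own thresholds and 56 and 92 after adjustment. With the replicate number as a block they were 21 and 51, and whether the numbers pair the cultures is not known. Quantile normalization gave 140 higher, and members outside the symbol-free range, an alternative chosen after seeing the data, 17 and 89. Without any 1 array, 23 to 34 were higher and 55 to 101 lower. The cause of these differences was otherwise not tested.

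The members' median of -0.087 was -0.018 after quantile normalization and -0.107 to -0.070 without any 1 array. The share below 0, 61.3%, was 65.0% with equal array medians, 52.5% after quantile normalization and 59.3% to 62.3% without any 1 array. A brightness minimum of 6 gave 8091 members. Of 39 named members followed, 10 lost a call in at least 1 of 14 settings and 0 reversed. Of the 6 DAXX clusters, 5 were called in the main fit, and all 5 lost the call with the replicate block. Among the 30 largest rises and falls 4 lost one.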
